A study of Mus musculus with 3 samples.

Results

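The Polycomb complex genes described here are 10 genes taken by name: Ezh2, Ezh1, Suz12, Eed, Rbbp7, Rbbp4 and Jarid2 of Polycomb repressive complex 2 (PRC2), and Rnf2, Ring1 and Bmi1 of Polycomb repressive complex 1 (PRC1). All 10 were found among the 50600 genes of the files, of which 21764 are protein-coding. The data are RNA sequencing counts of mouse regulatory T cells (Treg), CD4 T cells that depend on the factor Foxp3, in 3 libraries, which the labels number 2, 3 and 4 as biological replicates. All belong to a single group of primary cells, strain C57BL/6NJ, and no second condition was analysed here. Per the file headers the cells had been activated for 16 hours. No transgene or further treatment is named in the labels, the age is given as unknown, the sex was not collected, and all 3 libraries carry the same donor identifier. The assay label names total RNA, the linked library protocol is named for polyadenylated RNA, and the linked differentiation protocol is named for CD4 T cells. Comparisons are therefore between genes within a library and between the libraries. The spread given below is that of these 3 libraries, and how much of it is technical was not tested.

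The 3 libraries held 41222058, 47665060 and 99097524 fragments assigned to genes, in replicates 2, 3 and 4. Markers of the labelled cell type were present. In every library, 8 of 8 Treg markers and 8 of 8 general T cell markers reached 1 TPM (a level scaled for gene length and library total). Of all protein-coding genes, 45.6% did so. At 10 TPM these counts were 7 of 8 Treg markers and 8 of 8 general T cell markers, against 34.8% of protein-coding genes. Foxp3 stood at 76.4, 82.3 and 83.9 TPM. The summed level of 8 myeloid markers was 0.0955 to 0.454 TPM, with 5 of them, among them Lyz2 and Csf1r, at 0, and 4 NK cell markers summed to 0.533 to 0.730 TPM. Sums of 5.35 to 9.32 TPM for 6 B cell markers and 5.33 to 6.68 TPM for 6 stromal and epithelial markers were also low, whereas Cd8b1 stood at 28.2, 28.6 and 23.9 TPM with Cd8a at 0.338, 0.403 and 0.508. The libraries differed in sex-linked genes although they share a donor identifier. Xist, the RNA that coats the inactive X chromosome, had 27625, 85 and 18895 fragments, and the Y-linked gene Ddx3y had 8, 2932 and 4314. Replicate 2 thus had Xist with almost no Y-linked RNA, replicate 3 the opposite, and replicate 4 both.

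PRC2 places methyl groups on lysine 27 of histone H3. EZH2 or EZH1 is its enzyme, SUZ12 and EED are needed for activity, and RBBP4 or RBBP7 binds histones. PRC1 attaches ubiquitin to histone H2A through RING1 or RNF2 (RING1B) paired with a PCGF protein such as BMI1, and PRC2 and PRC1 together keep developmental regulators silent in cells that do not use them. In Treg cells, EZH2 is known to support the stability of the Foxp3 program after activation.

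The promoters of the 10 genes share a feature that choosing them by name did not use, a high density of CpG dinucleotides (C followed by G), the base composition of CpG islands. The windows of 300 bases (250 before and 50 after the start) came from RefSeq on GRCm38.p6, with 11 windows for the 10 genes because Jarid2 has a pair. A member's window held a median of 30.5 CpG (17 for Eed to 41 for Suz12) and 67.5% G and C, against medians of 7 CpG and 52.7% over all 32851 windows. By CpG count, Eed lay at the 68.6 percentile of all windows, and Ezh1, Bmi1 and the lower Jarid2 window at the 78.5. Windows of related chromatin genes were also rich in CpG, with medians from 19 for canonical PRC1 to 31 for Trithorax and lysine 36 methyltransferase genes. Medians were 29.5 for accessory PRC2 subunits, 22 for variant PRC1, 26 for the PR-DUB complex and 29 for other complexes of RBBP4 and RBBP7. Replication and mitosis genes had a median of 24, whereas the windows of 5 Treg markers held a median of 4. No test was made of these differences. Below are the 150 bases before the start for 5 expressed members, shown to let the levels be read beside the promoter, and for Hoxa13, a homeobox gene and developmental regulator without a fragment in any library, which was chosen after its values were seen. CpG are in capitals, and each is written on the strand of its gene. The RefSeq start lies before the first counted exon base for Rbbp7 and Rnf2, whose counted exons begin at 162760402 and 151500955. The Rbbp7 bases are chrX:162760222-162760371 (plus strand, 19 CpG), those of Rbbp4 chr4:129335371-129335520 (minus, 18), Rnf2 chr1:151500992-151501141 (minus, 16), Ring1 chr17:34024681-34024830 (minus, 23), Ezh1 chr11:101226464-101226613 (minus, 12) and Hoxa13 chr6:52260881-52261030 (minus, 25).
Rbbp7: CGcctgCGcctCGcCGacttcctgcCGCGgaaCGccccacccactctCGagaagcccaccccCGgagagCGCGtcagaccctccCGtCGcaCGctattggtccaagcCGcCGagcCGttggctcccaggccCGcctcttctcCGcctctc
Rbbp4: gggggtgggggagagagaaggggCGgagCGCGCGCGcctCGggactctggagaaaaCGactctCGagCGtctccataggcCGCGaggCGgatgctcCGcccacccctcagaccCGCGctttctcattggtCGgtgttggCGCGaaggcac
Rnf2: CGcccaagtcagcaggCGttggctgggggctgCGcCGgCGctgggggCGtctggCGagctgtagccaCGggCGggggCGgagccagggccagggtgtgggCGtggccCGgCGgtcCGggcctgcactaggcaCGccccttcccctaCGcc
Ring1: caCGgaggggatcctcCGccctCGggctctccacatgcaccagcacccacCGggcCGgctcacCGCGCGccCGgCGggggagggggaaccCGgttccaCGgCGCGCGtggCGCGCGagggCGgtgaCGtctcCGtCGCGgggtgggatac
Ezh1: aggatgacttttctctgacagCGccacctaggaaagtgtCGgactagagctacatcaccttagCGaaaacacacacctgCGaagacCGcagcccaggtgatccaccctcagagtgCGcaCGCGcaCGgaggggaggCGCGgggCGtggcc
Hoxa13: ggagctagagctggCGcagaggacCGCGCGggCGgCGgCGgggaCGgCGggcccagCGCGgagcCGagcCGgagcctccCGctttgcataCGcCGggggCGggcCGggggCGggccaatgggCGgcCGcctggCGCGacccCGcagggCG
Ring1, at 37.2 TPM, and Hoxa13, where 3 fragments would make at most 0.0994 TPM, both have more CpG in these 150 bases than Rbbp7, the most abundant member. The stretches of Suz12 (23 CpG, 178 TPM), Bmi1 (12 CpG, 82.8 TPM) and Jarid2 (11 CpG, 17.2 TPM) also overlap no annotated exon but are not printed. A relation of CpG count to level was not tested. Hoxa13 has the most CpG of the silent Hox stretches that overlap no annotated exon; the others held 2 (Hoxa2), 2 (Hoxa9), 4 (Hoxa10), 4 (Hoxb8), 8 (Hoxd12) and 19 (Hoxd13), named after their values were seen.

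Short sequence motifs were searched on both strands of the 300-base windows. An E2F motif (TTTGGCGC, TTTCCCGC or TTCCCGCC) was found in the windows of Ezh2 and Suz12, 2 of 11 member windows, against 3.21% of all windows. The GC box (GGGCGG, which can overlap TTCCCGCC on the other strand) was in 8 of 11 member windows and 35.7% of all. CCAAT was in 7 of 11 against 37.4%, TATAAA in 1 of 11 (a Jarid2 window) against 13.6%, and the ETS motif CCGGAAG in 0 of 11 against 8.86%. Member windows were richer in G and C than all windows (medians of 67.5% and 52.7%), and the shares were not matched for base composition. Both Jarid2 windows held the GC box and CCAAT, so that gene enters those counts more than once. These are matches of letters, and binding of a factor was not measured.

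All 10 members were expressed in every library. Each of the 10 reached 1 TPM and 10 TPM in all 3 libraries, where 45.6% and 34.8% of protein-coding genes did, and 4 of 10 (Rbbp7, Suz12, Rbbp4 and Eed) reached 100 TPM, where 8.8% did. Their median level was 86.7 TPM, beside a median of 0.355 TPM over all protein-coding genes, of which 37.9% had no fragment at all. Within a library, members lay between the 69.3 percentile of protein-coding genes (Ezh1) and the 98.8 percentile (Rbbp7). In bulk RNA, fewer cells expressing a gene and less of its RNA per cell cannot be told apart.

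**Figure D1:**
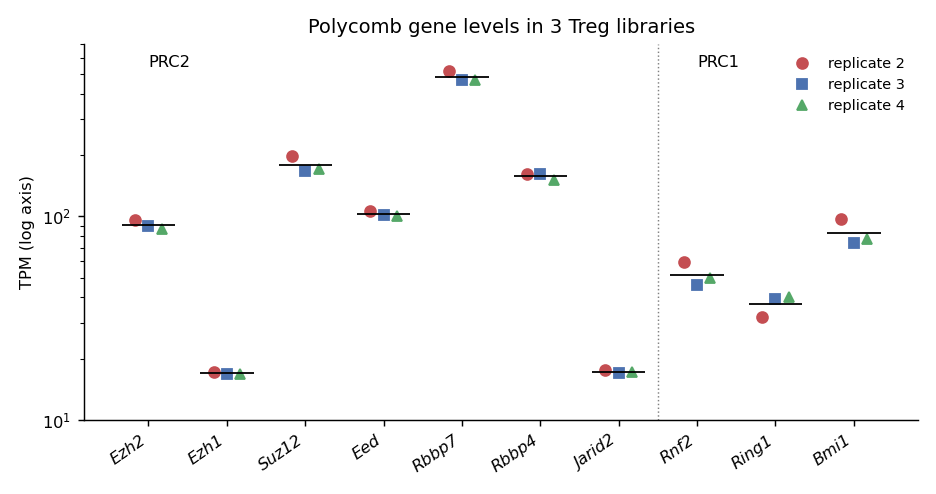
Level of each Polycomb member in TPM (log axis) in the 3 libraries, points by replicate, with a line at the mean. Rbbp7 is highest at 467 to 514 TPM, and Jarid2 and Ezh1 share the lowest place near 17 TPM.

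Of the PRC2 enzymes, Ezh2 was the more abundant. Ezh2 (ENSMUSG00000029687.16, mm10 chromosome 6, 47530139 to 47595341, minus strand) stood at 96.1, 89.2 and 86.4 TPM in replicates 2, 3 and 4, a mean of 90.6 ± 5.01 (SD, n = 3). Ezh1 (ENSMUSG00000006920.14, chromosome 11, 101191115 to 101226463, minus strand), the paralog better known from resting cells, was at 17.2, 16.7 and 16.8 TPM, 16.9 ± 0.274. Ezh2 was thus far above Ezh1 in each library, and their values did not overlap. The ratio of Ezh2 to Ezh1 levels was 5.58, 5.33 and 5.16, a difference of 2.35 ± 0.06 (SD, n = 3) on the log2(TPM + 1) scale. Ezh2 made up 84.3% ± 0.527 of the summed EZH level. All 5 pairs compared in this and the next paragraphs gave p = 0.25 by the exact two-sided sign-flip permutation test, also after adjustment over the 5 pairs. That is the smallest value 3 libraries allow, so no pair could pass 0.05.

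With merged exon lengths, the core partners Suz12 and Eed each exceeded Ezh2, the more abundant enzyme, in every library. Suz12 (ENSMUSG00000017548.15, chromosome 11, 79993106 to 80034123, plus strand), the scaffold subunit, stood at 198, 166 and 170 TPM, 178 ± 17.3 (SD, n = 3). Eed (ENSMUSG00000030619.9, chromosome 7, 89954654 to 89980983, minus strand), which reads methylated lysine 27, was at 106, 101 and 101 TPM, 103 ± 3.14. Replicate 2 was the highest library for both, by a wider margin for Suz12. The summed EZH level, 107 ± 5.28 TPM, was near that of Eed, and the ranges over libraries overlapped (103 to 113 against 101 to 106 TPM). Suz12 was above both in every library. With the length of the principal transcript in place of the merged exon length, an alternative chosen after seeing the data, Ezh2 rose from 90.6 to 150.1 ± 8.44 TPM and Suz12 fell to 139 ± 13.7. Ezh2 then stood above Suz12 in every library, at 159.5 against 155, 147.6 against 129 and 143 against 133 TPM, in replicates 2, 3 and 4. The order of Ezh2, Suz12 and Eed is therefore set by the length used, which moves Ezh2 by over 1.5 times.

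Of the histone-binding subunits, Rbbp7 was the most abundant of all members and Rbbp4 the third. Rbbp7 (ENSMUSG00000031353.13, chromosome X, 162760402 to 162779092, plus strand) stood at 514, 468 and 467 TPM, 483 ± 27.2 (SD, n = 3), and Rbbp4 (ENSMUSG00000057236.10, chromosome 4, 129307100 to 129335370, minus strand) at 160.3, 161 and 151 TPM, 157 ± 5.50. Rbbp7 exceeded Rbbp4 in 3 of 3 libraries, and replicate 2 was highest for Rbbp7 but not for Rbbp4. The level of Rbbp7 was 3.21, 2.91 and 3.09 times that of Rbbp4, and the log2(TPM + 1) difference of Rbbp4 minus Rbbp7 was -1.61 ± 0.07 (SD, n = 3). This difference in level rests on the length scaling. Rbbp4 has merged exons of 8744 bases and Rbbp7 of 2909, and without length scaling the log2 difference was -0.03, with Rbbp4 the higher in replicate 3 (423 against 410.1 CPM, counts scaled for the library's trimmed-mean size but not for gene length) and the lower in replicates 2 and 4, while with principal transcript lengths Rbbp7 was 2.01-fold above Rbbp4 (SD of the log2 difference 0.07, n = 3). Of the distinct 100-base windows in Rbbp7 transcripts, 1.33% also occur in a gene elsewhere, Gm6382, and reads from those cannot be placed uniquely.

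RBBP4 and RBBP7 also belong to the NuRD and SIN3 deacetylase complexes, to chromatin assembly factor 1 and to NURF, so their RNA is not a measure of PRC2 alone. Of 21 genes of those other complexes, 20 reached 10 TPM in every library and 10 reached 100; the list median was 102 TPM. The NuRD remodeller Chd4 stood at 411, 412 and 451 TPM, and the NuRD subunits Mbd3 and Mta2 at 372, 410 and 427 and at 319, 337 and 335 TPM. Lowest in this list were Mta3, at a mean of 26.4 TPM, and Smarca1, without a fragment. The summed Rbbp4 and Rbbp7 level, 640.1 ± 30.3 TPM, was above those of Suz12, Eed and the EZH genes in every library.

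Jarid2 and the other accessory subunits, which guide PRC2 to its sites or tune its activity, spanned a wide range. Jarid2 (ENSMUSG00000038518.15, chromosome 13, 44729474 to 44921643, plus strand) stood at 17.5, 17.05 and 17.1 TPM, 17.2 ± 0.270 (SD, n = 3). Mtf2, a Polycomb-like protein of the alternative form of PRC2 without JARID2, was at 48.3, 42.4 and 43.4 TPM. Mtf2 was above Jarid2 in every library, by 2.75, 2.49 and 2.54 times, and the log2(TPM + 1) difference of Jarid2 minus Mtf2 was -1.32 ± 0.08 (SD, n = 3). Of 8 accessory genes beside Jarid2, 7 reached 1 TPM, 5 reached 10 TPM and 2 reached 100 TPM in all libraries (list median 16.0 TPM). Highest was Epop, at 215, 249.4 and 218 TPM, followed by Aebp2, a subunit found with JARID2, at 114, 104 and 108 TPM. Lcorl was lowest of those detected, at 2.53, 1.52 and 2.02 TPM, and AU022751 (Ezhip), a gene whose product inhibits PRC2, had no fragment in any library.

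In PRC1, the ubiquitin ligase paralogs were close in level. Rnf2 (ENSMUSG00000026484.13, chromosome 1, 151458004 to 151500955, minus strand) stood at 59.7, 45.8 and 49.5 TPM, 51.7 ± 7.21 (SD, n = 3), and Ring1 (ENSMUSG00000024325.8, chromosome 17, 34020792 to 34024680, minus strand) at 32.2, 39.2 and 40.3 TPM, 37.2 ± 4.40. Replicate 2 was the highest library for Rnf2 and the lowest for Ring1, while their sum held at 91.9, 85.0 and 89.8 TPM. The ratio of Rnf2 to Ring1 levels was 1.86, 1.17 and 1.23, and the log2(TPM + 1) difference was 0.46 ± 0.36 (SD, n = 3). Without replicate 2 that difference was 0.26, so 1 library moves it by over 1.5 times. With principal transcript lengths it was 0.57, -0.08 and -0.01, so that Ring1 was level with or slightly above Rnf2 in replicates 3 and 4. These data therefore do not fix which of the pair is more abundant.

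Bmi1 (PCGF4; ENSMUSG00000026739.13, chromosome 2, 18677018 to 18686629, plus strand), the PCGF protein of canonical PRC1 known for repressing the Cdkn2a locus, stood at 96.9, 73.8 and 77.7 TPM, 82.8 ± 12.4 (SD, n = 3). Its closest paralog Pcgf2 (MEL18) was at 16.6, 18.6 and 19.5 TPM. Bmi1 was above Pcgf2 in every library, by 5.82, 3.97 and 3.98 times, or 2.12 ± 0.31 (SD, n = 3) on the log2(TPM + 1) scale, with the widest gap in replicate 2. Bmi1 took 30.5%, 26.9% and 27.4% of the summed level of the 6 PCGF genes, and Pcgf5 of variant PRC1, at 119.9, 106 and 108 TPM, was higher in each library. That order rests on length scaling, since per library Bmi1 had 114, 88.4 and 91.0 CPM and Pcgf5 58.8, 53.2 and 53.0 CPM. Of the distinct 100-base windows of Bmi1, 6.52% also occur in Gm5946, so the Bmi1 count may be slightly low. The plot of subunit pairs shows the 5 differences together.

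**Figure D2:**
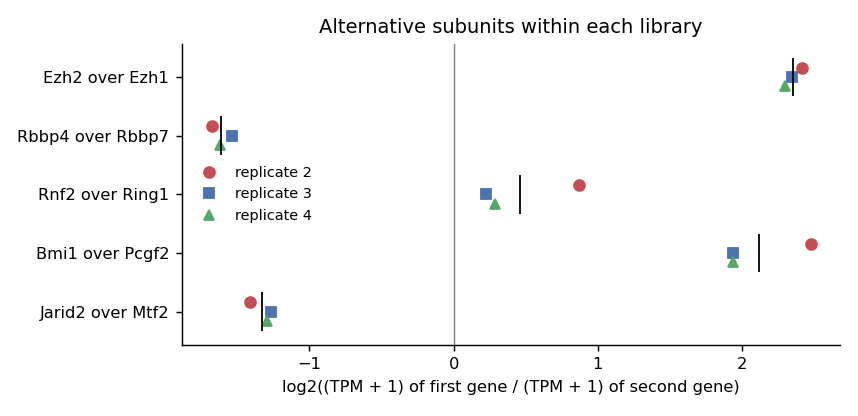
Difference in log2(TPM + 1) between the subunits of each of 5 pairs, points by library with a bar at the mean. Ezh2 over Ezh1 (2.30 to 2.41) and Bmi1 over Pcgf2 (1.93 to 2.47) are positive, Rbbp4 over Rbbp7 and Jarid2 over Mtf2 are negative, and Rnf2 over Ring1 is nearest to 0.

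The order of member levels was Rbbp7, Suz12, Rbbp4, Eed, Ezh2, Bmi1, Rnf2, Ring1, Jarid2 and Ezh1. Of the 9 neighbouring pairs in that order, 7 had ranges over the 3 libraries that did not overlap. The ranges of the other 2, Ezh2 with Bmi1 and Jarid2 with Ezh1, overlapped, although Jarid2 was the higher of its pair in 3 of 3 libraries. No exon base of any member is shared with another gene on the same strand, so their counts do not depend on how overlaps were treated. Bmi1 was the higher of Ezh2 and Bmi1 in 1 of 3 libraries, replicate 2. The order depends on the length used. With principal transcript lengths it was Rbbp7, Rbbp4, Ezh2, Suz12, Eed, Bmi1, Rnf2, Ring1, Ezh1 and Jarid2, with Rbbp4 at 216 ± 7.46 TPM against 139 ± 13.7 for Suz12, and Ezh1 at 20.7 ± 0.361 against 19.3 ± 0.329 for Jarid2 (SD, n = 3).

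Among all protein-coding genes, those nearest to Ezh2 over the 3 libraries, by Euclidean distance of log2(TPM + 1), were Cox6c (0.0180), Ciao2b (0.0198) and Ccny (0.0260). The nearest to Bmi1 were Uri1 (0.0416), Mbnl1 (0.0692) and Tcea1 (0.0879). With 3 libraries this measures mainly the level, and 277 genes lay within 0.25 of Ezh2 and 99 within 0.25 of Bmi1.

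The further subunits of PRC1 were present in both its forms. Of 12 genes of canonical PRC1, in which CBX proteins read methylated lysine 27 and PHC proteins join complexes together, 11 reached 1 TPM, 8 reached 10 TPM and 0 reached 100 TPM in all libraries (list median 17.9 TPM). Phc2 stood highest at 68.0, 81.5 and 74.1 TPM, then Cbx7 at 62.4, 60.8 and 71.0 and Cbx6 at 48.9, 54.4 and 55.7. Scml4 and Scml2, the lowest, had means of 1.89 and 0.746 TPM. Of 22 genes of variant PRC1, in which RYBP or YAF2 takes the place of CBX proteins, 21 reached 1 TPM, 19 reached 10 TPM and 8 reached 100 TPM (list median 66.8 TPM). The highest of these, Csnk2b, Skp1a and Dcaf7 (means of 261, 261 and 186 TPM), also serve in other complexes. The lowest were Pcgf1, which pairs with the BCOR corepressor and the CpG-binding protein KDM2B, at 8.10, 9.56 and 9.73 TPM, and Auts2, with 7, 21 and 69 fragments. Auts2 stayed at or under 0.103 TPM in each library. Summed over paralogs, the RING1 genes stood at 88.9 ± 3.56 TPM, the PCGF genes at 292 ± 22.7, the CBX genes at 190.2 ± 7.16 and the PHC genes at 106 ± 6.82 (SD, n = 3). The catalytic RING1 genes thus had a lower summed level than the PCGF genes that bind them in every library. The PCGF sum spans more genes, however, and both sums use merged exon lengths, on which the place of Pcgf5 above Bmi1 rests.

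**Figure D3:**
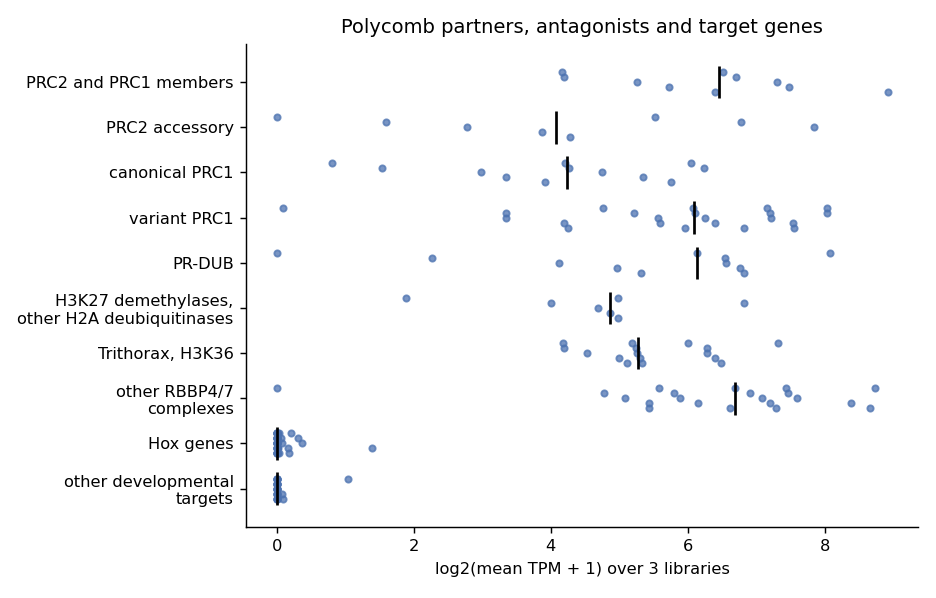
Level of each gene as log2 of the mean TPM plus 1 in the lists of Polycomb subunits, opposing enzymes and target genes, with a bar at each list's median; the vertical spread of points within a list has no meaning. The bars of the complexes lie at 16.0 TPM or more, whereas 38 of 39 Hox genes and 25 of 26 other developmental targets stayed below 1 TPM in every library. Of all 21764 protein-coding genes, 11409 did so.

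Enzymes that remove the Polycomb marks were expressed too. Of 11 genes of the PR-DUB complex, which removes ubiquitin from histone H2A, 10 reached 1 TPM and 9 reached 10 TPM in all libraries (list median 69.4 TPM). Hcfc1, Bap1 (the enzyme itself) and Foxk2 were highest at 268 ± 25.0, 112 ± 5.91 and 107 ± 1.42 TPM (SD, n = 3), and Mbd5 (3.79 TPM) and Asxl3 (no fragment) lowest. Kdm6b (JMJD3), a demethylase of lysine 27, stood at 102, 113 and 119.8 TPM, and the deubiquitinases Usp16 and Usp21 at means of 30.6 and 30.5 TPM. Mysm1, another deubiquitinase, was lower at 16.2, 14.2 and 14.8 TPM. The X-linked demethylase Kdm6a (UTX), a gene known to escape X inactivation, was at 33.7, 17.6 and 22.8 TPM, and its Y-linked counterpart Uty at 0.00837, 4.71 and 3.35 TPM. Kdm6a was highest and Uty nearly at 0 in replicate 2, the library with the most Xist. Kdm6b was above Kdm6a in every library. Rbbp7 is also on the X chromosome, and its highest-to-lowest ratio between libraries of 1.11 was below the 1.88 of Kdm6a.

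**Figure D4:**
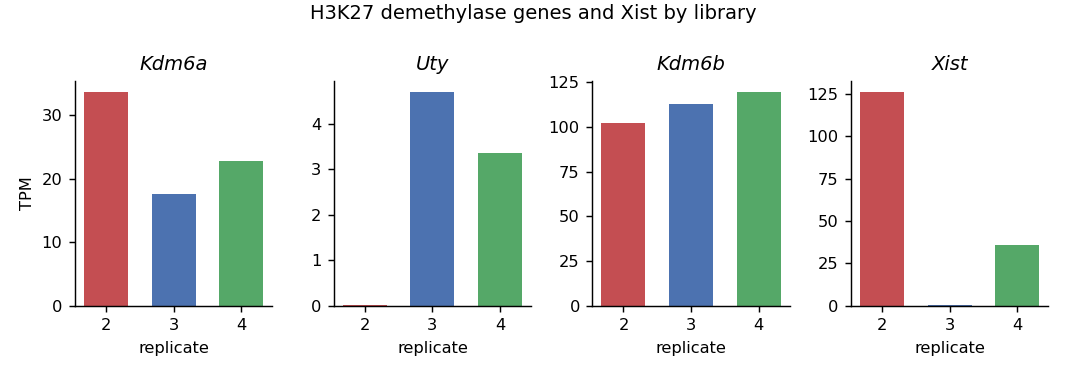
TPM (bars from 0, a separate axis for each gene) of the lysine 27 demethylase genes Kdm6a, Uty and Kdm6b, and of Xist, in replicates 2, 3 and 4. Kdm6a is 33.7 TPM in replicate 2 and 17.6 in replicate 3, Uty is nearly at 0 in replicate 2, and Kdm6b is 102 to 119.8 TPM; Xist is highest in replicate 2.

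The Trithorax group and the lysine 36 methyltransferases, which act against Polycomb at active genes, were at 10 TPM or more in all libraries for 16 of 16 genes (list median 37.7 TPM). Dpy30 stood highest at 178, 149 and 150 TPM, followed by Men1 and Kmt2b with 83.3, 91.6 and 90.9 and with 76.9, 76.7 and 94.8 TPM. Ash1l and Kmt2c were lowest at 17.0, 14.8 and 19.2 and at 17.6, 14.4 and 19.8 TPM.

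Genes known as Polycomb targets in many cell types were nearly all silent. Of 39 Hox genes, 27 had no fragment in any library, 38 stayed below 1 TPM in every library and 1, Hoxb4, was at or above 1 TPM in each. Of all 21764 protein-coding genes, 8240 (37.9%) had no fragment and 11409 stayed below 1 TPM in every library, so low levels are common beyond these lists. Hoxb4, a homeobox gene active in blood progenitors, stood at 1.63, 1.69 and 1.57 TPM, from 51, 62 and 118 fragments, with Hoxa4 and Hoxa7 next at means of 0.284 and 0.242 TPM. Of 26 other developmental regulators and cell cycle inhibitors, 23 had no fragment, among them Cdkn2a, and 0 reached 1 TPM in every library. Lhx2 came closest with 1.31, 1.10 and 0.787 TPM, and Cdkn2b had 3 fragments, in replicate 2 alone, where 3 fragments make 0.176 TPM. Histone marks were not measured, so silence of these genes is not a measure of Polycomb activity. Promoter windows were at hand for 15 of the 27 Hox genes without a fragment, with a median of 13 CpG (4 to 45), below the 30.5 of the members.

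The cells expressed the genes of DNA replication and mitosis, with which Ezh2 is known to rise in dividing cells. All 25 genes of that list reached 1 TPM in every library, 21 reached 10 TPM and 8 reached 100 TPM (list median 46.2 TPM). The helicase genes Mcm3, Mcm5 and Mcm6 led with 801, 854 and 869 TPM, with 710.1, 785.0 and 788 TPM and with 688, 663 and 654 TPM. Lowest were the mitotic cyclins Ccnb1 and Ccnb2, at means of 5.90 and 2.49 TPM. The summed level was 4936, 4949 and 4989 TPM. The median difference of the list from the other libraries on the log2 CPM scale was 0.06 in replicate 2 and -0.04 in replicate 4.

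Differences between the libraries were small for the Polycomb members, with a median ratio near that of all protein-coding genes tested. A gene counted as different where the chi-square test gave a Benjamini-Hochberg adjusted p under 0.05 and the CPM of its highest library was 2 or more times that of its lowest. By this rule 0 of 10 members were called, where 10.9% of 13688 genes tested were. That share includes genes of far lower count, down to 30 summed fragments, so 0 calls among 10 genes does not set the members apart. At a ratio of 1.5 the count was again 0 of 10, against 16.1% of genes. At the ratio of 2, lists of related genes had few calls too. These were 0 of 7 accessory PRC2, 0 of 12 canonical PRC1, 1 of 22 variant PRC1 and 0 of 10 PR-DUB genes. They were 0 of 16 Trithorax and lysine 36 genes, 0 of 20 of other RBBP4 and RBBP7 complexes and 1 of 7 demethylases and other deubiquitinases. Without the ratio, 8 of 10 members passed the adjusted p (8 also before adjustment), as did 70.8% of all genes tested, because the test takes fragments as independent and measures counting error only. The members without such a difference were Ezh1 and Jarid2, with highest-to-lowest ratios of 1.03 each (adjusted p = 0.573 and 0.547). The widest ratios were those of Bmi1 at 1.29 (adjusted p = 6.41e-41), Rnf2 at 1.28 (adjusted p = 7.15e-22) and Ring1 at 1.25 (adjusted p = 5.61e-11). The median ratio of the members was 1.11, beside 1.16 for protein-coding genes tested. The lists of related genes had medians from 1.09 (other RBBP4 and RBBP7 complexes) to 1.19 (Trithorax and lysine 36 methyltransferases).

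Replicate 2 was the highest library for 8 of 10 members, including Ezh1 and Jarid2, whose ratios were 1.03 each. How many of all genes tested were highest in replicate 2 was not counted, so this count alone does not set the members apart. Against the mean of the other libraries, Bmi1 was 0.34 higher in replicate 2 on the log2 CPM scale, Rnf2 0.31 higher and Suz12 0.22 higher, whereas the value for Ring1 was -0.31. From the 5th to the 95th percentile of protein-coding genes, the same difference ran from -0.34 to 0.34, so Bmi1 lay at the 95.1 percentile and Ring1 at the 5.99 percentile. These members also differ in base composition. G and C make up 40.2% of Bmi1, 39.5% of Rnf2 and 41.6% of Suz12 transcript bases, the lowest 3 of the members, and 60.7% of Ring1, the highest. Across 9835 genes, the difference of replicate 2 from the others correlated with G and C content (Pearson r = -0.520, Spearman rho = -0.687; genes share the libraries and are not independent), and that of replicates 3 and 4 correlated in the opposite direction (r = 0.314 and 0.362).

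With library sizes set separately in 20 bins of G and C content, a step chosen after seeing the data, the differences of replicate 2 shrank to 0.15 for Bmi1, 0.07 for Rnf2, 0.03 for Suz12 and -0.12 for Ring1. The widest member ratio was then 1.12 and the median 1.04, with 1.12 for protein-coding genes. The ratio of Rbbp4 rose, however, from 1.09 to 1.11. The log2 difference between Rnf2 and Ring1 became 0.59, 0.37 and 0.42 in replicates 2, 3 and 4, with an SD of 0.11 in place of 0.36. The ratio of Kdm6a went from 1.88 to 1.68.

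**Figure D5:**
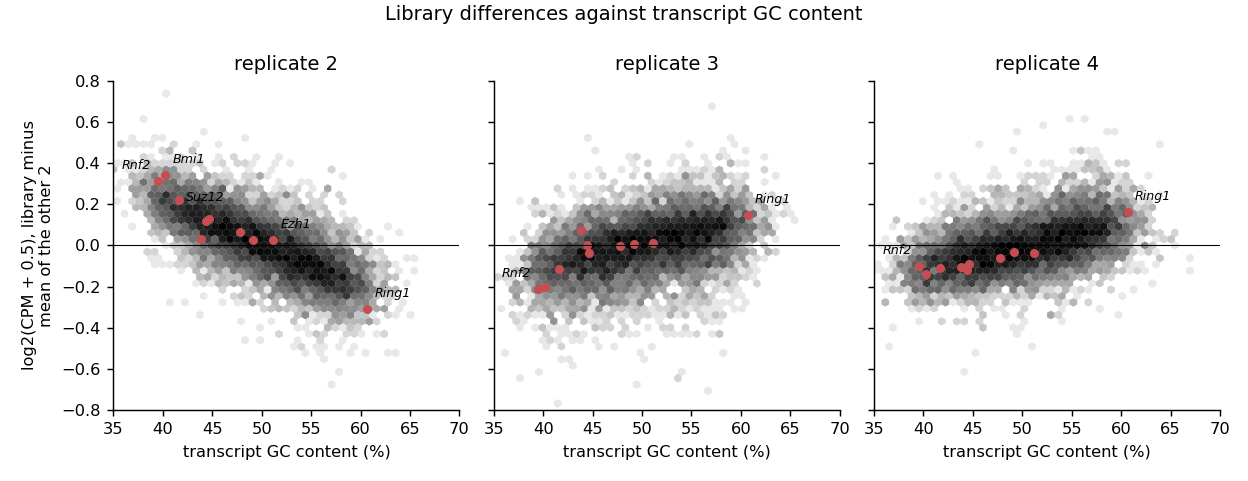
Log2(CPM + 0.5) of each library minus the mean of the others against transcript G and C content in percent, for genes of higher count (hexagons, darker for more genes) with the Polycomb members as points. In replicate 2 genes of low G and C content, Bmi1 and Rnf2 among them, lie above 0 and Ring1 lies below.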

How the data were processed

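RNA of regulatory T cells was measured in 3 libraries of 1 group. The deposited values are raw fragment counts per gene with merged exon lengths. Per the file headers, the authors counted with featureCounts 1.4.6-p4 on paired, reverse-stranded alignments (strand option 2), keeping pairs with both ends aligned, over GENCODE M13 exons. The build is mm10 per the labels. STAR appears in the names of the alignments counted; nothing is stated of its version and settings in the sources used here. The command carries no option for fragments that fit several places or genes, which that program leaves out by default.

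TPM was computed here as the count over the deposited exon length, scaled to 1000000 per library. Symbols came from GENCODE M21 (50376 genes matched, 224 not), and promoters from RefSeq, GRCm38.p6. Totals were 41222058, 47665060 and 99097524 fragments, and the smallest member counts 1274, 1786 and 3643. For Ezh1 and Jarid2 the spread between libraries was not beyond counting error (chi-square test). Where 3 fragments are given as a TPM, this is a floor that covers counting error only.

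Pairs were tested by exact permutation of signs over the libraries (two-sided) on log2((TPM + 1)/(TPM + 1)). With 1 group, edgeR's quasi-likelihood test has nothing to compare. For differences between libraries, each gene's counts were set against equal rates with a chi-square test (summed count of 30 or more, log2 CPM with 0.5 added) on trimmed-mean sizes (edgeR 4.0.16, R 4.3.3; DESeq2 1.42.0 as an alternative), with Benjamini-Hochberg adjustment over all genes tested; a lowest count of 0 was replaced by 3 fragments. It compares libraries, not conditions. G and C content was compared over genes with 300 or more summed fragments. Other work was done in Python 3.11.15 with scipy 1.17.1, numpy 2.4.6, matplotlib 3.10.9 and pandas 2.3.3, and the steps were tested on simulated data.

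The members and gene lists were chosen with earlier results of these data known. Genes named are the members, the partners of the pairs, the highest 3 and lowest 2 of each list, called list genes and the nearest 3 genes to Ezh2 and Bmi1; Kdm6a, Pcgf5, Cdkn2a and Hoxa13 were named after their values were seen. Some genes that this rule names are not reported here.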

Additional observations from a re-analysis of the deposited data

How the results depend on the processing

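The mean of each of the 5 subunit pairs kept its sign under a pseudocount of 0.1, no length scaling, principal transcript lengths and leaving out each library. In single libraries the order turned for 2 pairs, Rnf2 with Ring1 in replicates 3 and 4 under principal lengths (exact sign-flip p = 1.0) and Rbbp4 with Rbbp7 in replicate 3 without length scaling (exact sign-flip p = 0.75). No pairing of libraries between conditions was possible because the libraries form 1 group. Principal transcript lengths moved 8 of 10 members by more than their SD, from 16.9 to 20.7 TPM for Ezh1, 103 to 132 for Eed, 483 to 433 for Rbbp7, 157 to 216 for Rbbp4, 17.2 to 19.3 for Jarid2 and 82.8 to 63.3 for Bmi1, beside the values given above for Ezh2 and Suz12. Scaling over protein-coding genes moved Ezh1, Eed, Rbbp4 and Jarid2 by more than their SD, to 17.7, 108, 165 and 18.0 TPM. The number of genes called between libraries was 1496, 2816 with no filter on low counts, and 775, 514 and 532 without replicate 2, 3 and 4, where only 2 libraries remain to differ. Counts of detected genes moved in 4 lists. At 0.5 TPM, 1 developmental target, 4 B cell markers and 1 erythroid or platelet marker were detected, against 0, 1 and 0 at 1 TPM. Leaving out 1 library gave 0 to 1 developmental targets, 0 to 3 sex-linked genes, 1 to 2 B cell markers and 0 to 1 erythroid or platelet markers. Depth limits what can be said of silent genes, since the shallowest library has 41222058 fragments.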

Other observations

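Further lists linked to Polycomb were chosen after the data were seen and are given as values. Among 8 genes of MBT domain proteins and the YY1-containing complex, 6 reached 1 TPM and 5 reached 10 TPM in every library. Yy1, the DNA-binding relative of the fly Polycomb recruiter, stood at 148, 121 and 126 TPM, Phf20l1 at 44.96, 37.8 and 40.3, and L3mbtl3 at 22.1, 22.2 and 22.1 TPM. L3mbtl1 had 5 fragments in all and L3mbtl4 none.

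Among 10 long non-coding RNAs named in work on Polycomb recruitment or X inactivation, 3 reached 1 TPM in every library and 4 (Hotair, Meg3, Hottip and Rian) had no fragment. Firre stood at 5.92, 4.59 and 6.21 TPM, Ftx at 3.69, 2.33 and 3.08, and Airn at 2.33, 1.83 and 2.40. Jpx, at the X inactivation centre, was at 1.71, 0.598 and 1.04 TPM, highest in replicate 2, which also had the most Xist, and lowest in replicate 3, which had the least. Its highest-to-lowest CPM ratio was 2.81 (chi-square test, adjusted p = 7.75e-08), and 1.64 to 1.71 without replicate 3 or 2. Kcnq1ot1 was highest in replicate 4, at 0.246, 0.147 and 0.423 TPM from 253, 178 and 1044 fragments, a ratio of 2.81 (adjusted p = 1.9e-44), and 1.72 without replicate 3 and 1.64 without replicate 4.

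Auts2 (ratio 4.10, adjusted p = 0.000624) and Uty (ratio 574, adjusted p = 1.32e-111) were called different between libraries by the chi-square test. Others called included Hoxb3, with 16, 5 and 9 fragments, the 4 sex-linked genes Xist, Ddx3y, Eif2s3y and Kdm5d, and the B cell gene Igkc, with 15, 48 and 43 fragments. Without replicate 3 the ratio of Igkc was 1.19, so that call rests on replicate 3. Auts2 was no longer called without replicate 2 (ratio 1.58, adjusted p = 0.12).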
